A study of Mus musculus with 8 samples.

Results

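SMA-positive myofibroblasts are stromal cells of the colon mucosa named for smooth muscle actin. The members are the cells that the authors placed in the class Myofibroblasts with the subtype SMA-pos, and there were 173 of them among 53080 cells in all. They were set beside 6254 fibroblasts of 4 subtypes: 4424 CD90-positive, 1667 CD90-positive Igfbp3, 116 named MSCs and 47 CD90-negative Sox6-Bmp. The cells came from the distal colon of 8 mice of 8 weeks of age, 1 single-cell 3′ library per mouse. Mice 2, 3, 6 and 7 carried Vil1::Cre;Spry2-f/f (labelled KO), and the littermates 1, 4, 5 and 8 were Spry2-f/f without the Cre (labelled WT). All 8 mice thus carried the floxed allele of Spry2, whose product limits receptor tyrosine kinase signalling. The Vil1 promoter drives the Cre in gut epithelium, so no recombination was designed in the cells described here. Per the labels' protocols, the myenteric layers were peeled off by hand before digestion, which limits how much smooth muscle the samples hold. Sex and strain are not used here.

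Myofibroblasts and smooth muscle cells contract when calcium and calmodulin activate myosin light chain kinase, and myosin then slides along actin filaments that are anchored to desmin and to integrin attachments. Serum response factor and its partner myocardin switch on most of these genes through a DNA motif called the CArG box. In the colon mucosa such cells lie beneath the epithelium, in the muscularis mucosae and around vessels, and those near the crypt base are known as a source of R-spondins and of antagonists of bone morphogenetic protein (BMP).

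All 4 defining genes were detected at high levels. Levels are CPM of the UMIs summed over the cells of a mouse, where a UMI marks 1 captured molecule and CPM scales every sum to the same total, and mouse 1 gave only 1 cell. Acta2 (GRCm38 chr19:34241090-34255590, minus strand), the smooth muscle actin, stood at 7866, 13219, 15551, 11653, 9325, 10815 and 6767 CPM in mice 2 to 8. Tagln (chr9:45929619-45936058, minus strand), an actin-binding calponin relative, stood at 4133, 11624, 18365, 10085, 7564, 8935 and 6072 CPM. Myh11 (chr16:14194535-14291372, minus strand), the smooth muscle myosin heavy chain, stood at 4565, 6001, 5184, 3868, 3147, 3268 and 2024 CPM. Des (chr1:75360329-75368579, plus strand), the intermediate filament desmin, stood at 3516, 3903, 4591, 1629, 704, 1196 and 316 CPM. The 3 actomyosin genes were high in every one of these mice, while desmin varied most and was lowest in mouse 8.

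Per cell, the label was less even. At least 1 Acta2 UMI was found in 149 of 173 cells (86.1%, 95% Clopper-Pearson interval 80.1 to 90.9), Tagln in 145, Myh11 in 145 and Des in 88 (50.9%). The median cell held 31 Acta2 UMIs and the highest 364. For comparison, Acta2 was found in 22 of 12834 mature B cells (0.171%) and in 65 of 4424 CD90-positive fibroblasts (1.47%). Their median depths were 1893 and 3886 UMIs, against 3544 in the SMA-positive cells. Acta2 was more frequent in Igfbp3 (203 of 1667) and Sox6-Bmp fibroblasts (36 of 47). The part of free RNA in these counts was not tested. With each cell thinned to 1000 UMIs, which left out 13 shallower cells, the share with Acta2 was 85.0% in the SMA-positive cells. The intervals cover counting error only. Thus 24 cells that carry the SMA-positive name hold no Acta2 UMI, and all of them belong to 1 of the 2 clusters described further on.

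The name also has neighbours on its border. Another 8 cells are named SMA-pos within the fibroblast class. Of these, 3 hold 15 to 60 Acta2 UMIs, and 4 hold both Upk3b and Msln, genes of the mesothelium, the outer lining of the gut. Of 13 cells in the myofibroblast class without the SMA-pos name, 11 hold Acta2 (1 to 137 UMIs), and the authors named 6 of the 13 doublets. None of these cells was used below.

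The cells were few and came mostly from 3 mice. Mice 1 to 8 gave 1, 6, 4, 4, 78, 28, 48 and 4 of them, so 154 of 173 came from mice 5, 6 and 7. As a percentage of stromal cells (fibroblast, myofibroblast and endothelial classes, lymphatic vessels included), they made up 0.228, 0.667, 0.318, 0.376, 6.06, 2.54, 3.35 and 1.36 in mice 1 to 8. Mice 5 to 8 all stood above mice 1 to 4, whatever the genotype. In that order of mice, the percentage of epithelial cells with 50% or more mitochondrial UMIs was 78.8, 79.6, 69.0, 53.5, 37.2, 18.5, 13.6 and 11.1. This measure of RNA quality was higher in each of mice 1 to 4 than in mice 5 to 8, the reverse of the share. Within mice 5 to 8 that order did not hold, since mouse 8 had the lowest value and the lowest share. Its part in the share of SMA-positive cells was not tested.

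The share did not differ between genotypes beyond the spread between mice. KO-labelled mice had 1.72% ± 1.46 (SD, n = 4) and WT-labelled mice 2.01% ± 2.75 (SD, n = 4) of stromal cells, a difference of -0.286 percentage points (two-sided exact permutation test over 70 assignments, p = 0.857). Among all cells the shares were 0.368% ± 0.387 and 0.341% ± 0.567 (n = 4 each, exact permutation p = 0.8286). Within mice 1 to 4 the stromal shares were 0.4926% in the KO-labelled and 0.302% in the WT-labelled pair. Within mice 5 to 8 they were 2.95% and 3.71%. The 4 mice of either group range over most of the scale, and WT-labelled mouse 5 holds the highest share of all.

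**Figure D1:**
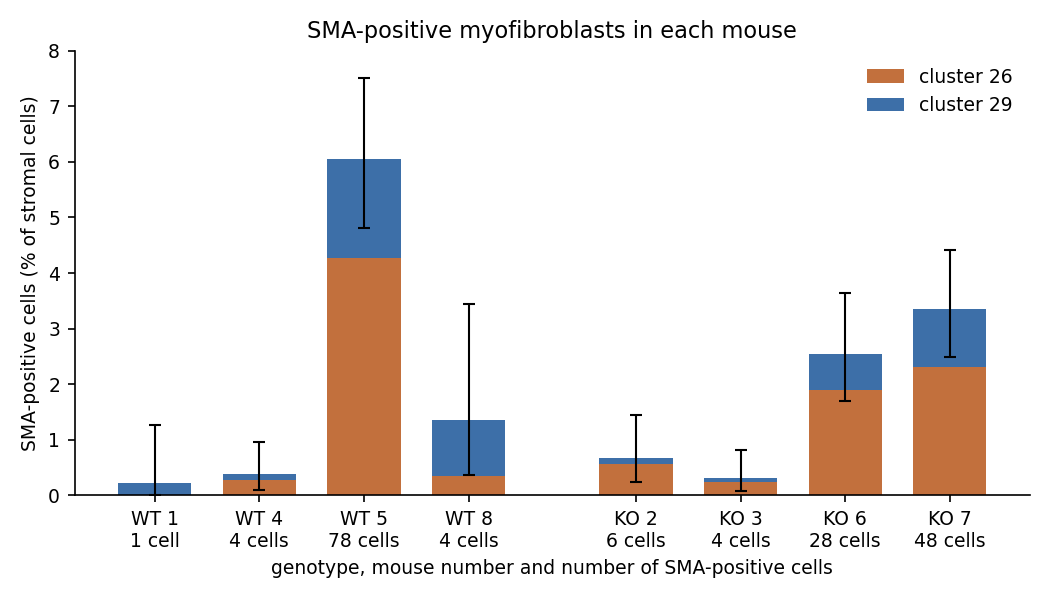
SMA-positive cells as a percentage of stromal cells in each of the 8 mice (y axis, percent; x axis, mouse with its group label), stacked by the authors' cluster 26 and cluster 29; error bars are 95% Clopper-Pearson intervals of the whole share. The shares run from 0.228% in mouse 1 to 6.06% in mouse 5, and the 4 highest bars are mice 5 to 8.

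The depth and quality of the cells set the limits of what follows. The 173 cells held 742008 UMIs in all, 535 to 15985 per cell. Their median mitochondrial share was 6.36% of UMIs, against 2.90% in the fibroblasts, and 14 cells had 20% or more. Of 52717 distinct cell barcodes, 356 occurred in more than 1 library. That was so for 4 SMA-positive cells, and no barcode belonged to SMA-positive cells of 2 libraries. In the 2 KO-labelled mice and the 1 WT-labelled mouse with 10 or more cells, the median depth was 3599 and 4062 UMIs (exact permutation p = 1, the design allows no p below 0.333).

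Contractile genes were far higher in these cells than in fibroblasts. Ratios were taken within mice 5, 6 and 7, the mice with 10 or more SMA-positive cells, on the log2 scale after adding 10 CPM to both levels. They are descriptions without a test, because the cells were named by the authors in these same libraries. Of 10587 genes measured, 297 (2.81%) were past a log2 ratio of 1 upwards in each of the 3 mice and 340 (3.21%) downwards. The bar of 2 was passed by 102 genes upwards (0.963%) and 82 downwards (0.775%). All 19 measured genes of the contractile apparatus list were higher by log2 1 or more in each mouse, with a median log2 ratio of 5.02 against -0.04 over all genes measured.

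Acta2 stood at 11653, 9325 and 10815 CPM in the SMA-positive cells of mice 5, 6 and 7 and at 108, 31.5 and 40.2 CPM in their fibroblasts. Its log2 ratio was 7.40 ± 0.67 (SD over 3 mice, as for the ratios below). Tagln reached 8.16 ± 0.53 and Myh11 7.72 ± 0.31. Actg2, the gamma actin of visceral smooth muscle, had a log2 ratio of 7.62 ± 0.35, and its fibroblast level was 0.904 CPM. Cnn1, the calponin that restrains actomyosin, had 6.66 ± 0.18. The myosin light chain Myl9 had 6.11 ± 0.46 and its kinase Mylk 5.93 ± 0.41. The actin nucleator Lmod1 and the tropomyosin Tpm2 had 5.54 ± 0.22 and 5.02 ± 0.15. Des had 5.41 ± 0.71, from 1629, 704 and 1196 CPM against 13.3, 17.3 and 18.6 CPM. In none of these genes did the level summed over all fibroblast subtypes come near the SMA-positive level in any of these mice. That sum hides the few Sox6-Bmp cells, described further on, where Acta2 was seen in 36 of 47 cells (76.6%).

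The next genes by the smallest ratio of the 3 mice were of mixed kinds. They held Rgs5, a regulator of G protein signalling used as a pericyte marker (log2 ratio 6.29 ± 1.00), and Hhip, a membrane protein that binds hedgehog ligands and is induced by them (5.25 ± 0.06). Tinagl1 (5.30 ± 0.18), a matrix protein of basement membranes, and Pcp4l1 (5.19 ± 0.40) followed. Further down came Fbxl22 (4.17 ± 0.25), the adhesion molecules Mcam (4.11 ± 0.10) and Esam (4.08 ± 0.05), Tspan2 (4.06 ± 0.24), Cdc42ep3 (3.99 ± 0.02) and Pdlim3 (3.86 ± 0.20), a protein of the actin anchor sites.

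Regulators of this program were higher in part. Of 12 measured regulators, 5 were past log2 1 in each mouse and none below -1. Myocd, the myocardin coactivator, stood at 119, 138 and 70.4 CPM in mice 5, 6 and 7 against 3.33, 0.525 and 1.5 CPM in fibroblasts (log2 ratio 3.30 ± 0.50). Mef2c, a transcription factor of muscle and vessels, had 3.13 ± 0.35, Id4 2.91 ± 0.11, Foxf2 1.45 ± 0.29 and Srf, the serum response factor itself, 1.44 ± 0.32. Foxf1 (1.02 ± 0.21) and Nkx2-3 (1.12 ± 0.52), factors of gut mesenchyme, lay at the bar without passing it in every mouse.

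Sites of the CArG box are shown here because this is the motif through which serum response factor acts. The windows were RefSeq promoters of GRCm38.p6, from 250 bases before to 50 after each start site, and 17 of the 20 contractile genes matched a window. Tagln, Myh11 and Actg2 did not. The motif has 6 central letters, A or T, and the pattern reads the same on both strands. Without any C or G among those letters it was found in 2 of the 17 genes (11.8%) and in 488 of 27025 genes in the table (1.81%). With at most 1 such letter it was found in 5 of 17 (29.4%) and in 11.3% of all genes. With that allowance 1 of 7 matched fibroblast marker genes held it and 0 of 8 matched pericyte marker genes. Capitals mark the motif, and each line is read on the strand of the gene:
Acta2, chr19:34255388-34255417, minus strand, 1 C or G, 34 bases upstream: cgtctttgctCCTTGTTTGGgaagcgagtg
Acta2, chr19:34255438-34255467, minus strand, 1 C or G, 84 bases upstream: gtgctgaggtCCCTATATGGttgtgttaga
Myl6, chr10:128493040-128493069, minus strand, 0 C or G, 50 bases upstream: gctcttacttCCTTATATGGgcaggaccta
Myl9, chr2:156775293-156775322, plus strand, 0 C or G, 161 bases upstream: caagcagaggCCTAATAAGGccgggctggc
Myl9, chr2:156775355-156775384, plus strand, 1 C or G, 99 bases upstream: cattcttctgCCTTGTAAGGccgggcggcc
Pcp4, chr16:96467489-96467518, plus strand, 1 C or G, 107 bases upstream: ggtatagaatCCTTTTAGGGtggatgcttt
Synm, chr7:67759962-67759991, minus strand, 1 C or G, 239 bases upstream: caacggggagCCTCATAAGGtgtcccagat
Acta2 and Myl9 thus hold 2 matches each in this window, and Myl6, Pcp4 and Synm 1 each. Distances are counted from the RefSeq start site of the window. For Acta2 that site is not the end of the gene span given above, since both lines lie within chr19:34241090-34255590. A match is a run of letters and not a measured binding site, and no match speaks only of these 300 bases.

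Calcium and cyclic nucleotide signalling, which sets the tone of contraction, was higher in part as well: 9 of 14 measured genes were past log2 1 in each mouse and none below -1. They include Kcnma1, the large-conductance potassium channel (log2 ratio 2.78 ± 0.49), Gucy1b1, a subunit of the nitric oxide receptor (2.33 ± 0.34), Prkg1, the kinase that cyclic GMP activates (2.22 ± 0.31), and Pde5a, the enzyme that degrades cyclic GMP (2.10 ± 0.26). Of 7 measured receptors for contraction signals, the endothelin receptors Ednra (1.65 ± 0.48) and Ednrb (1.80 ± 0.39) were past the bar upwards. The angiotensin receptor Agtr1a (-1.27 ± 0.29) was past it downwards. Of 18 measured genes for integrins and attachment, 10 were past log2 1 and none below -1. The collagen-binding integrin chain Itga1 (4.09 ± 0.44), Itga8 (3.73 ± 0.28) and dystrophin, Dmd (2.81 ± 0.33), are among them.

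Fibroblast genes and interstitial matrix lay on the other side. Of 12 measured fibroblast markers, 11 were below log2 -1 in each mouse and none above 1, with a median of -3.08. The exception was Thy1, which encodes CD90 (-0.94 ± 0.55). Pi16, a protein of adventitial fibroblasts, had 0 UMIs in the 173 cells and 794 CPM in fibroblasts. That is at least 196-fold lower in the SMA-positive cells, against the 4.04 CPM that a count of 0 allows over all of them. Has1, a hyaluronan synthase, Pcolce2 and Ccl7 were also at 0 UMIs, at least 127-fold, 117-fold and 66.2-fold lower. C3, the complement component, stood at 2.70 against 1410 CPM and Cd34 at 36.4 against 1242 CPM. Other genes among the 10 lowest were Fndc1, Cilp, Col14a1 and Cd55, at log2 ratios from -5.52 to -5.10.

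Matrix genes were lower to different degrees. Of 20 measured interstitial matrix genes, 14 were below log2 -1 in each mouse and none above 1, with a median of -1.76. Col1a1 stood at 613, 582 and 646 CPM in mice 5, 6 and 7 against 4014, 3847 and 3890 CPM (log2 ratio -2.66 ± 0.07). Eln, the elastin gene, had -3.24 ± 0.45 and Mgp -4.86 ± 0.85. Postn, a matrix protein that bridges collagen and integrins, was close to the fibroblast level (0.21 ± 0.39). Of 16 measured basement membrane genes, 3 were below log2 -1 and none above 1, and Col4a1 had 0.84 ± 0.15.

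**Figure D2:**
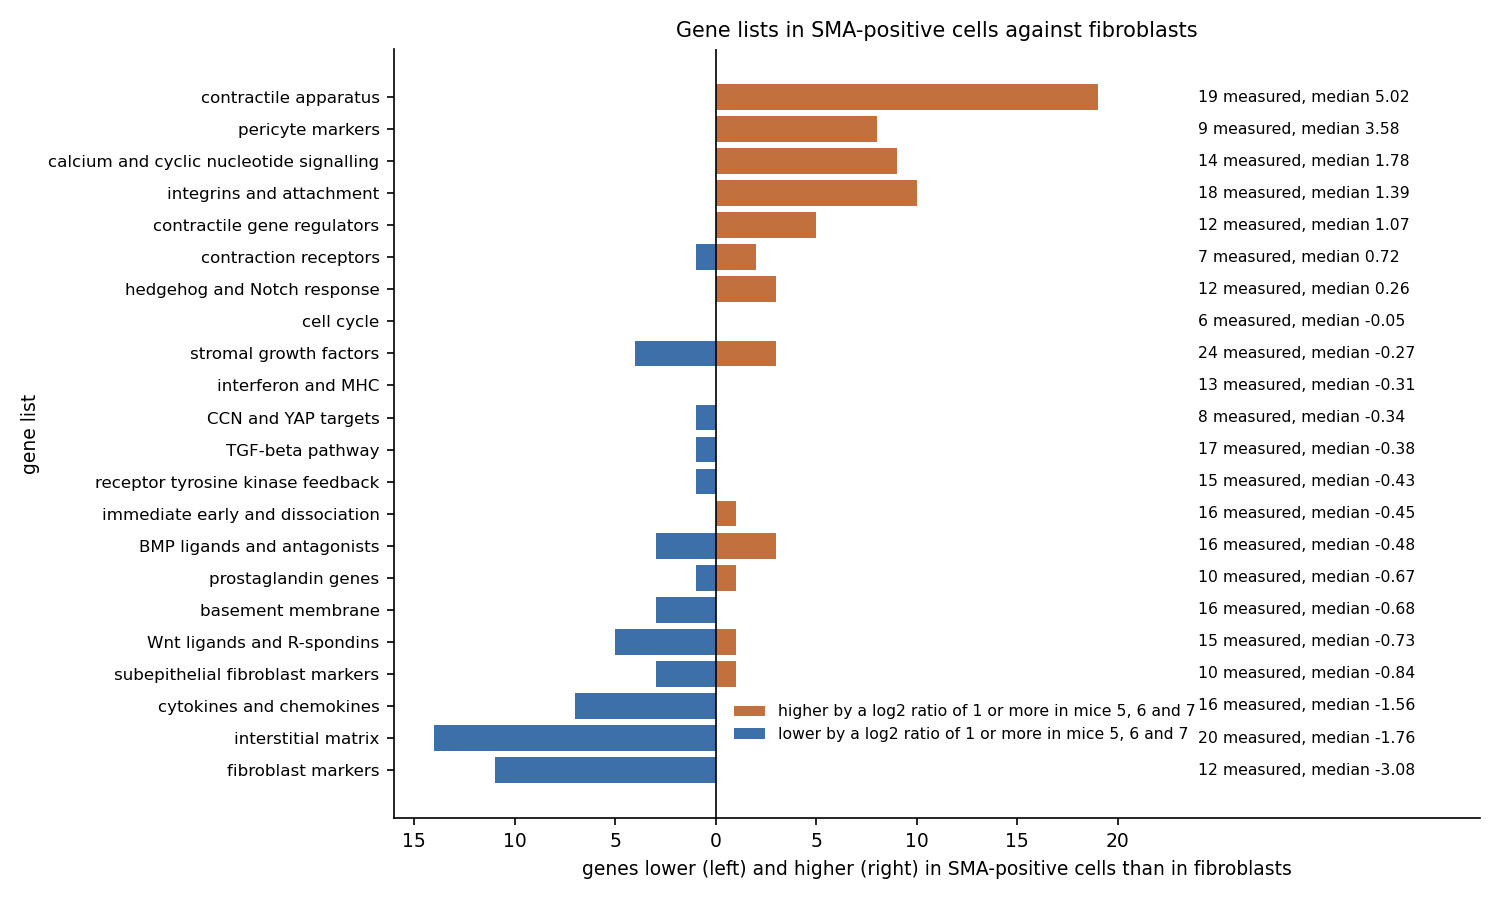
Number of genes in each list that were higher (right) or lower (left) by log2 1 or more in the SMA-positive cells than in fibroblasts in each of mice 5, 6 and 7 (x axis, genes; y axis, gene lists with the number measured and the median log2 ratio). The contractile apparatus has 19 of 19 genes on the higher side and the fibroblast markers 11 of 12 on the lower side.

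The 173 cells were not of 1 kind. The authors' clusters split them into 121 cells of cluster 26 and 52 of cluster 29. Mice 1 to 8 gave 0, 5, 3, 3, 55, 21, 33 and 1 cells of cluster 26 and 1, 1, 1, 1, 23, 7, 15 and 3 of cluster 29. Among mice with 4 or more SMA-positive cells, cluster 29 made up 24.5% ± 5.98 of them in KO-labelled (SD, n = 4) and 43.2% ± 27.7 in WT-labelled mice (SD, n = 3; exact permutation p = 0.2, the smallest p this design allows is 0.0286). The clusters were made on these same cells, so the values below describe them and carry no test.

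Cluster 29 was led by genes of pericytes, the contractile cells that wrap capillaries. Notch3 (chr17:32120820-32166852, minus strand), the Notch receptor of vascular mural cells, stood at 844, 658 and 836 CPM in cluster 29 of mice 5, 6 and 7. Not a single UMI of it was found in cluster 26, so it was at least 175-fold higher in cluster 29. It was seen in 44 of 52 cells of cluster 29 (84.6%) and in 0 of 121 of cluster 26, which allows a share of cells with a UMI of up to 2.48% (3 counts of the total). In mature B cells it was seen in 2 of 12834. Ndufa4l2, a mitochondrial protein known from pericytes, was at 0 UMIs in cluster 26 and 733 CPM in cluster 29, at least 140-fold higher. Cox4i2 (1.75 and 668 CPM), Vtn (0 and 231 CPM, at least 44.1-fold), Ebf1 (14.0 and 1479 CPM) and Nrarp (1.75 and 349 CPM), a target and brake of Notch signalling, followed the same order. Rgs5 was present in both clusters, at 543 and 5400 CPM.

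All 11 measured pericyte markers were higher in cluster 29 by log2 1 or more in each of the 3 mice (median 3.67). Over all genes measured, 177 of 4002 were so (4.42%), with a median of -0.24. A gene counted as measured if it held at least 30 UMIs over both clusters. Of the 11 markers, 4 had 0 UMIs in cluster 26 and so passed that filter through cluster 29 alone. Their direction was thus fixed by the filter, and the count of 11 is no test of the list. The potassium channel subunit Kcnj8, whose channel sets pericyte tone with Abcc9, was seen in 25 of the 52 cells. Of the fibroblast markers, 5 of 9 measured were lower in cluster 29 than in cluster 26 and none higher. The label of cluster 29 is therefore only partly matched by its genes, and the cluster is called by its number here. Its Acta2 level was 5483 CPM, and 28 of its 52 cells held an Acta2 UMI.

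Nearly all cells of cluster 26 held actomyosin transcripts, while Des was seen in 50 of 121. Acta2 was seen in all 121 cells, at 13291, 10590 and 12753 CPM in mice 5, 6 and 7, and Tagln and Myh11 in 119 cells each. Against cluster 29, 8 of 19 measured contractile genes were higher in cluster 26 by log2 1 or more in each mouse, and none in cluster 29. Over all genes, 268 of 4002 (6.70%) were higher in cluster 26 by that bar. The bar of 2 was passed by 93 genes towards cluster 26 (2.32%) and by 71 towards cluster 29 (1.77%). Actg2 stood at 3196 CPM in cluster 26 and 166 CPM in cluster 29, and Cnn1 at 1417 and 124 CPM. Myl9 was more alike, at 4151 and 2786 CPM.

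Genes of the hedgehog response and of matrix set cluster 26 further apart. Hhip (chr8:79965851-80058006, minus strand) stood at 1794, 1624 and 1849 CPM in cluster 26 of mice 5, 6 and 7 and was seen in 95 of 121 cells. In cluster 29 it was at 11.8 CPM and in 2 of 52 cells. Ptch1 and Gli1, the hedgehog receptor and effector, were also past the bar towards cluster 26, Ptch1 at 473 against 59.1 CPM. Of 9 measured genes of the hedgehog and Notch list, 3 hedgehog genes were thus higher in cluster 26. Another 4, the Notch genes Notch1, Notch3, Jag1 and Nrarp, were higher in cluster 29. Notch3 had 0 UMIs in cluster 26 and passed the UMI filter through cluster 29 alone, so its direction was fixed by the filter. Among all genes measured, 6.7% were higher in cluster 26 and 4.42% in cluster 29 by the same bar. Only 2 of the 173 cells held UMIs of both Hhip and Notch3. Rbp4, the retinol-binding protein (846 CPM, at least 47.7-fold), Mfap5, a protein of elastic microfibrils (649 CPM, at least 36.6-fold), and Bdkrb2, a bradykinin receptor (316 CPM, at least 17.8-fold), had 0 UMIs in cluster 29. A count of 0 allows 17.7 CPM there. Postn stood at 2232 against 35.5 CPM.

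**Figure D3:**
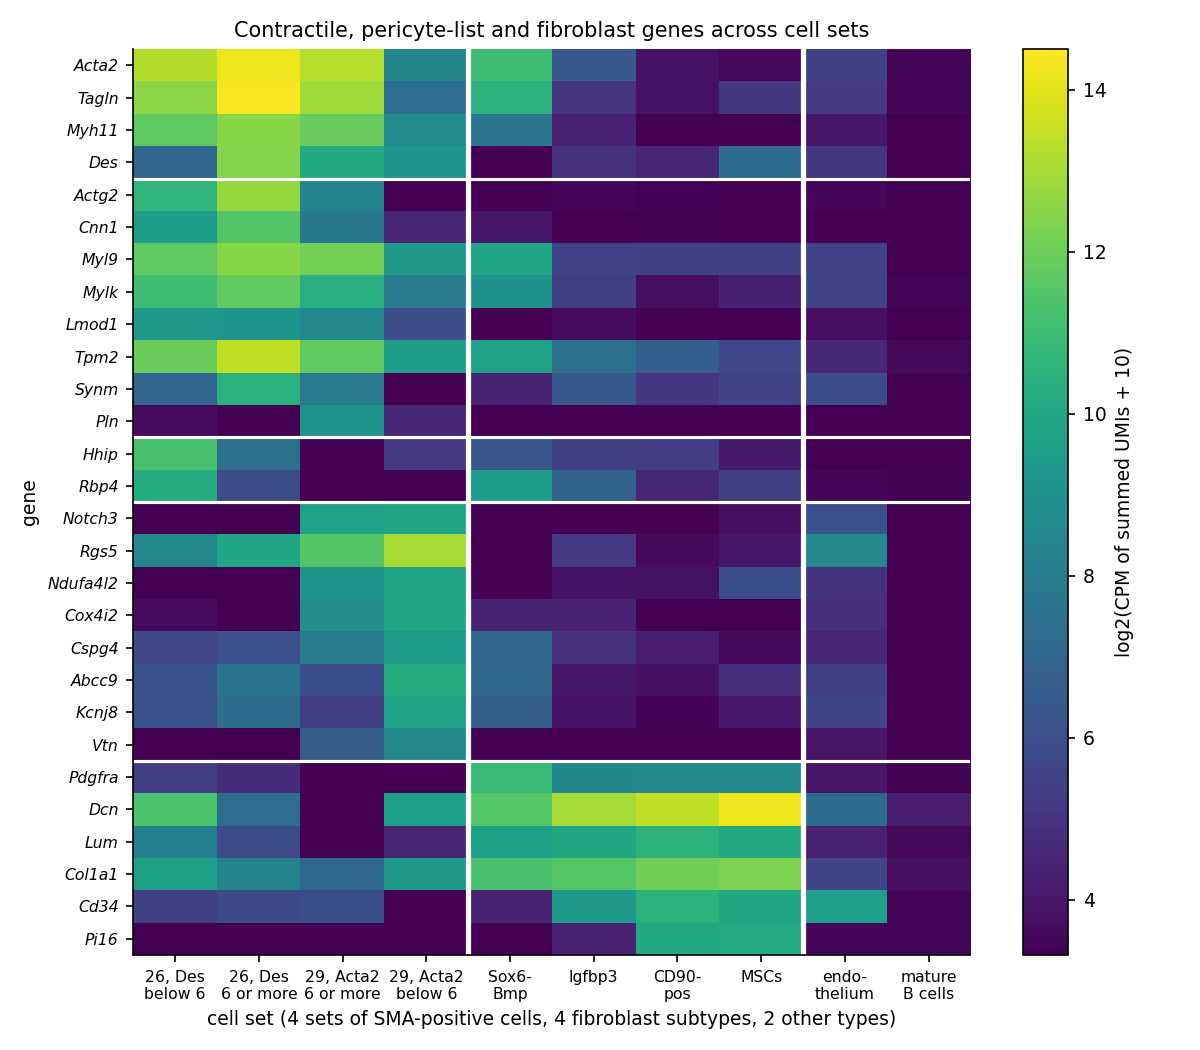
Levels of 28 genes as log2(CPM + 10) (color scale) in 4 sets of SMA-positive cells, 4 fibroblast subtypes, endothelium and mature B cells (x axis), with genes grouped on the y axis. Contractile genes are high in cluster 26 and in the high-Acta2 cells of cluster 29, Hhip in the low-Des cells of cluster 26, and Notch3 in both sets of cluster 29.

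Within cluster 26, desmin separated a minority of cells. Of 121 cells, 71 held no Des UMI, 30 held 1 to 3, and 20 held 7 to 107, with none in between. The 20 cells with at least 6 came from mice 2 to 7 (1, 2, 1, 11, 2 and 3 cells). This split, like that of cluster 29 below, was chosen after the values were seen, as were the genes named for it, and carries no test. The 20 cells were deeper, at a median of 9286 UMIs against 3563, and their median mitochondrial share was 10.2% against 5.78%. The part of depth in the split was not tested.

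The high-Des cells held the highest levels of the contractile genes described here. Tagln stood at 21768.5 CPM in them and 5963 CPM in the other 101 cells, Acta2 at 19168 and 9599, Actg2 at 6892 and 1570, and Cnn1 at 2943 and 746 CPM. Synm, the synemin that joins desmin filaments, stood at 1395 and 116 CPM. Id4 stood at 1252 and 256 CPM. The muscarinic receptor Chrm2, which receives acetylcholine from nerves, was seen in 8 of the 20 and in 1 of the 101 cells.

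High-Des cells also held the transcripts of crypt niche factors. Grem1 (chr2:113746164-113758646, minus strand), an antagonist of BMP ligands, stood at 1143 CPM in the 20 cells and 30.2 CPM in the others, and was seen in 17 and 3 cells. Chrdl1, another such antagonist, stood at 200 and 45.2 CPM. Rspo3, the R-spondin that raises Wnt signalling in crypts, stood at 457 and 25.1 CPM, in 17 and 4 cells. Igfbp2, a binding protein of insulin-like growth factors, stood at 657 and 5.03 CPM, and Fgf10 at 149 and 12.6 CPM. In each of the 6 mice that held both kinds of cell, Grem1 and Rspo3 were higher in the high-Des cells. Igfbp2 was so in 5 of 6.

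Low-Des cells of cluster 26 held another set. Hhip stood at 2442 CPM in them and 166 CPM in the high-Des cells, and was seen in 87 of 101 and 8 of 20 cells. It was lower in the high-Des cells in each of the 6 mice. Dcn, the small proteoglycan decorin, stood at 2550.5 and 149 CPM, Rbp4 at 1196 and 51.4 CPM, and F2r, the thrombin receptor, at 480 and 17.1 CPM. Myocd was not higher with the contractile genes: it stood at 171 CPM in low-Des and 74.3 CPM in high-Des cells. Bmp4 stood at 684 and 303 CPM, Bmp5 at 138 and 22.9 CPM, Igf1 at 276 and 17.1 CPM and Pdgfc at 224 and 17.1 CPM. Des and Hhip still occurred together, since 35 cells held both, 15 Des alone, 60 Hhip alone and 11 neither.

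**Figure D4:**
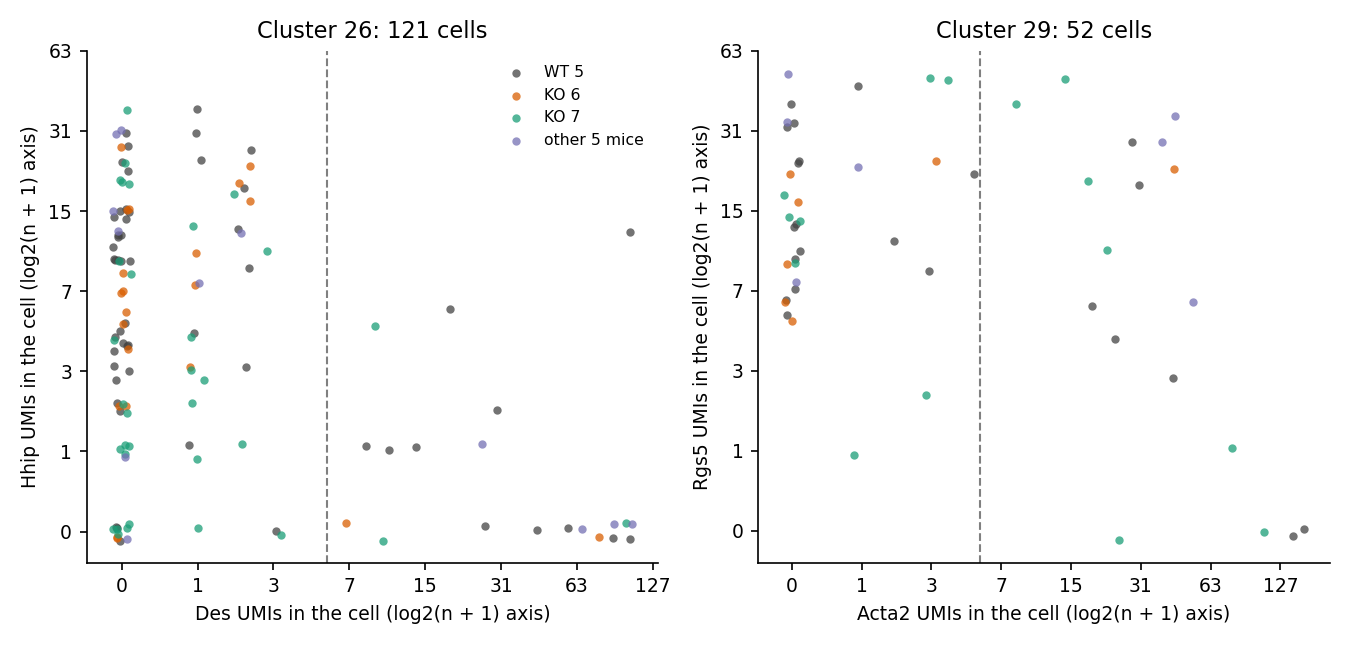
UMIs per cell as log2(UMIs + 1), 1 point per cell with a small random offset: Des against Hhip in cluster 26, and Acta2 against Rgs5 in cluster 29; colors mark mice 5, 6, 7 and the other 5 mice, and the dashed line is the bar of 6 UMIs. The 20 cells right of the line in cluster 26 hold Hhip in 8 cases, and 24 cells of cluster 29 sit at 0 Acta2 UMIs.

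Cluster 29 was split by Acta2 itself. Of 52 cells, 24 held no Acta2 UMI, 10 held 1 to 5 and 18 held 9 to 160. Mice 5, 6 and 7 gave 7, 1 and 7 of the 18 cells, and mice 2, 3 and 8 gave 1 each. Median depth was 4687 UMIs in the 18 cells and 2154 in the other 34, and the median mitochondrial share was 9.04% and 4.46%. Notch3 did not follow the split, at 853 and 992 CPM, seen in 15 of 18 and 29 of 34 cells.

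The high-Acta2 cells of cluster 29 held Tagln at 7710 CPM against 155 CPM in the others. Myh11 stood at 3784 and 425 CPM and Pln, the phospholamban that brakes the calcium pump, at 547 and 12.9 CPM. P2rx1, the ATP receptor of arterial smooth muscle, was seen in 10 of 18 and 0 of 34 cells. Actg2 was low even here, at 306 CPM against 6892 in the high-Des cells of cluster 26. The low-Acta2 cells were higher in Rgs5 (8296 against 2942 CPM), Abcc9 (1185 against 54.7), Kcnj8 (889 against 32.8) and Pdgfrb (1778 against 383), the platelet-derived growth factor receptor of pericytes. Col4a1, a basement membrane collagen, stood at 2731 against 470 CPM. Their Acta2 level was 335 CPM, above the 4.60 CPM of CD90-positive fibroblasts and below the 2066 CPM of Sox6-Bmp fibroblasts. Abcc9, Kcnj8, Rgs5 and Pdgfrb were each lower in the high-Acta2 cells in all 4 mice that held both kinds.

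Among the fibroblast subtypes, the 47 Sox6-Bmp cells held the highest levels of Acta2. They stood at 2066 CPM for Acta2, 1419 for Tagln, 977 for Myl9 and 530 for Mylk, with Acta2 seen in 36 of 47 cells. Des and Actg2 were at 0 UMIs in them and Myh11 at 200.1 CPM. Their Pdgfra level was 1854 CPM against 21.6 CPM in the SMA-positive cells, and Bmp7, a BMP ligand, stood at 471 against 1.35 CPM. The other 3 subtypes held 1.89 to 76.0 CPM of Acta2, the highest in the Igfbp3 cells, where 203 of 1667 cells (12.2%) had a UMI. Des was seen in 38 of 116 MSCs (32.8%), at 142 CPM.

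Secreted factors were also compared with fibroblasts over all SMA-positive cells summed. Of 15 measured Wnt ligands, R-spondins and inhibitors, 1 was higher than in fibroblasts by log2 1 or more in each mouse, Rspo3 (122, 53.6 and 95.9 CPM in mice 5, 6 and 7 against 16, 12.3 and 12.9; log2 ratio 2.02 ± 0.45). Another 5 were lower, among them Wnt4 (-1.83 ± 0.59) and Sfrp1 (-1.81 ± 0.41). The list's median was -0.73, or -0.94 with genes at 0 UMIs set at their bound. Of 16 measured genes for BMP ligands, antagonists and targets, Chrdl1 (1.77 ± 0.31) and Id2 were among those higher, and Bmp6, Bmp7 and Fst were lower. Grem1 had 1.07 ± 0.59 and did not pass the bar in every mouse. CD90-positive Igfbp3 fibroblasts held 176 CPM of it. Rspo3, Grem1 and Igfbp2 were at 0 UMIs in all 52 cells of cluster 29, which allows a share of cells with a UMI of up to 5.77% for each.

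Of 24 measured growth factor genes, 3 were higher than in fibroblasts and 4 lower, Vegfa and Nrg1 among the lower ones. The higher ones were Igfbp2 (157.7 CPM, and 0 UMIs in 6254 fibroblasts), Pdgfc (3.62 ± 0.42) and Pdgfa (2.08 ± 0.20). The last 2 are ligands of platelet-derived growth factor receptors. Igfbp2 passed the UMI filter through the SMA-positive cells alone, so its direction was fixed by the filter. Among all genes measured, 2.81% were higher and 3.21% lower by the same bar. Of 16 measured cytokines and chemokines, 7 were lower and none higher. Il33, an alarmin of stromal cells, stood at 1.35 CPM against 199.5 CPM in CD90-positive fibroblasts, and Cxcl12 had a log2 ratio of -1.71 ± 0.63. Within the SMA-positive cells, 3 of 5 measured chemokines were higher in cluster 29. They were Cxcl1 (538 against 24.4 CPM), Ccl11 (260.3 against 26.2 CPM) and Ccl2 (296 against 0 UMIs). Ccl2 passed the UMI filter through cluster 29 alone, so its direction was fixed by the filter. Among all genes measured, 4.42% were higher in cluster 29 by the same bar. Kitl, the ligand of the KIT receptor, stood at 302 CPM in cluster 29 and 47.1 CPM in cluster 26. Ccl2 came from 5 cells only.

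**Figure D5:**
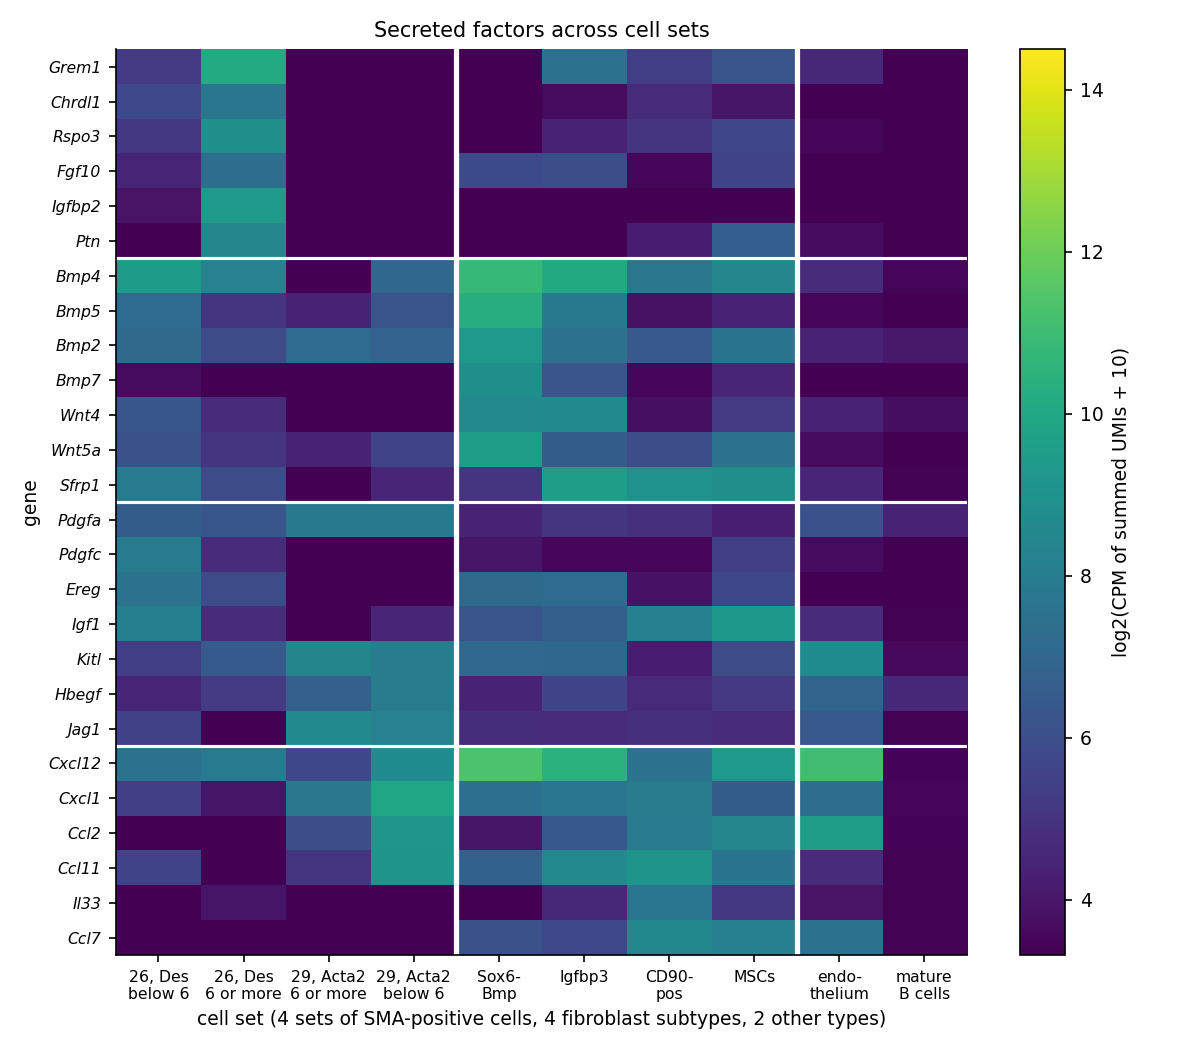
Levels of 26 secreted factors as log2(CPM + 10) (color scale) in 4 sets of SMA-positive cells, 4 fibroblast subtypes, endothelium and mature B cells (x axis), with BMP antagonists and R-spondin at the top and chemokines at the bottom of the y axis. Grem1 and Rspo3 are highest in the high-Des cells of cluster 26, at 1143 and 457 CPM.

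Several lists had few or no genes past the bar against fibroblasts. Over all genes measured, 2.81% were past log2 1 upwards in each mouse and 3.21% downwards. Low counts in lists this short therefore cannot show that these programs did not differ. Of 13 measured interferon and MHC genes and 6 cell cycle genes, none was past log2 1 in each mouse in either direction. Of 16 immediate early and dissociation genes, 1 was higher, the small heat shock protein Hspb1 (3.40 ± 0.51). Of 17 TGF-beta pathway genes, Ltbp4 was lower and none higher, and of 8 measured CCN and YAP targets, Ctgf was lower. Of 15 receptor tyrosine kinase feedback genes, the group that holds the Sprouty family, Pdgfra was lower and none higher. Of 10 measured prostaglandin genes, the receptor Ptger1 was higher (1.15 ± 0.04) and Ptges lower.

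Markers of other cell types ranged from absent to widespread. The 8 fibroblast markers gave 2127 UMIs in 161 cells, 629 to 4372 CPM in KO-labelled and 2370 to 2656 CPM in WT-labelled mice, and their median log2 ratio to fibroblasts was -2.77. The 6 markers of subepithelial fibroblasts (telocytes) gave 162 UMIs in 88 cells, and the 3 of interstitial cells of Cajal, the gut pacemaker cells, 120 UMIs in 49. All 4 macrophage markers and all 3 mesothelial markers had 0 UMIs, as did S100b, Sox10 and Gfap of enteric glia and Mmrn1 of lymphatic vessels. All 4 blood endothelial markers were seen, with 72 UMIs in 10 cells and a summed level of 0 to 44.8 CPM in KO-labelled and 0 to 379 CPM in WT-labelled mice. B and plasma cell markers gave 201 UMIs, 42.0 to 991 CPM in KO-labelled and 0 to 61.0 CPM in WT-labelled mice. Epithelial markers gave 69 UMIs in 49 cells. Markers of T cells (11 UMIs), neurons (10), lymphatic vessels (7), enteric glia (3) and mast cells (2) were in 8 cells or fewer each. The part of these cell types in the results was not tested. The 8 pericyte markers gave 2024 UMIs in 123 cells, 1952 to 3262 CPM in KO-labelled and 2536 to 6009 CPM in WT-labelled mice. A UMI of Epcam, Cd79a, Cd3e, Pecam1 or C1qa was found in 18 of the 173 cells.

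The targeted gene, Spry2 (chr14:105891947-105896819, minus strand), did not separate the groups in epithelium. In epithelium it stood at 10.4, 13.3, 15.7 and 49.3 CPM in KO-labelled mice 2, 3, 6 and 7 and at 11.2, 17.6, 27.7 and 37.6 CPM in WT-labelled mice 1, 4, 5 and 8, so the ranges overlapped. The sources used here do not say whether the counted 3′ ends fall in the deleted stretch. The SMA-positive cells of mice 1 to 8 held 1, 1, 0, 2, 8, 1, 13 and 0 Spry2 UMIs. With so few UMIs, no comparison of the groups is drawn for Spry2 in these cells.

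No gene passed the test of genotype within the SMA-positive cells. The comparison asks whether loss of Spry2 designed for epithelium goes with a change in these neighbours. It used 172 cells summed per mouse in the 4 KO-labelled and 3 WT-labelled mice with 4 or more cells. With edgeR's quasi-likelihood test and Benjamini-Hochberg adjustment, 0 of 477 genes tested (0%) were called in either direction, and 7 had an unadjusted p under 0.05. DESeq2 called 0 and had 5 at that unadjusted level. All 4 defining genes were close to 0 within their errors: the log2 fold change of KO-labelled over WT-labelled mice was -0.05 ± 0.37 for Acta2 (SE), 0.28 ± 0.37 for Myh11, -0.42 ± 0.44 for Tagln and 0.17 ± 0.71 for Des. Des changed sign with the cells used. Without cells of 2 or more pericyte marker UMIs, which left 68 cells of 2 KO-labelled mice and 1 WT-labelled mouse, its log2 fold change was -1.86 (edgeR's quasi-likelihood test, adjusted p = 0.0154, 0.0154 to 1 over its alternatives). With 1 WT-labelled mouse, that test assumes that it varies like the others, and it does not tell that mouse from its genotype.

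The 7 genes with an unadjusted p under 0.05 were Fn1, Rgs5, Col4a2, Rpl36 and Rpl26, lower in KO-labelled mice, and Meg3 and Postn, higher. Fn1, the fibronectin gene, stood at 263, 576, 564 and 849 CPM in KO-labelled mice 2, 3, 6 and 7 and at 1978, 1056 and 1097 CPM in WT-labelled mice 4, 5 and 8, on edgeR's scaled library sizes. A single cell held 41 of the 43 Fn1 UMIs of mouse 4 and another 14 of the 18 of mouse 8. The values of the groups did not overlap, and the log2 fold change was -1.19 ± 0.37 (SE; edgeR's quasi-likelihood test, adjusted p = 0.906). Rgs5 had -0.90 ± 0.35 at the same adjusted p, with 1350, 1284, 1045 and 1923 CPM in KO-labelled and 2530, 1556 and 4146 CPM in WT-labelled mice. Cluster 29 made up 24.5% and 43.2% of these cells on average, and its part in the Rgs5 values was not tested. The basement membrane collagens Col4a2 (435.8 against 738 CPM on average) and Col4a1 (788 against 1238 CPM) lay in the same direction. So did the ribosomal protein genes Rpl36 (1081.5 against 1657.5 CPM), Rpl26 (1127 against 1715 CPM), Rps26 and Rpl36a. In the other direction lay Meg3, a long noncoding RNA (723 against 236 CPM), Postn (1905 against 1191 CPM), Cyb5r3, Pcp4l1 and Cpe. None of these differences held after adjustment (edgeR's quasi-likelihood test, adjusted p = 0.906 for each). Xist, the RNA of the inactive X chromosome, gave 0, 0, 127 and 162 UMIs in KO-labelled mice 2, 3, 6 and 7 and 0, 1 and 9 UMIs in WT-labelled mice 4, 5 and 8. It is a transcript of female cells, and it separated mice 6 to 8 from mice 2 to 5, not the genotypes. The single SMA-positive cell of mouse 1, which was not in the fit, held 3 Xist UMIs.

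The genotype difference was also compared with that in CD90-positive fibroblasts of the same mice. Of 5838 genes tested, 5 had a higher log2 fold change in the SMA-positive cells (0.0856%) and 0 a lower one by edgeR's quasi-likelihood interaction test with Benjamini-Hochberg adjustment. At an unadjusted p under 0.05 there were 161. DESeq2 called 0, with 72 at that unadjusted level. The difference of log2 fold changes was 3.92 ± 0.49 for Adamdec1 (SE; edgeR's quasi-likelihood test, adjusted p = 1.1e-11), 2.98 ± 0.56 for Jchain (0.000275), 2.30 ± 0.46 for Grem1 (0.00128), 3.28 ± 0.68 for Serpina3n (0.00185) and 4.14 ± 0.88 for Ccl2 (0.00292). For Adamdec1, the F of edgeR's quasi-likelihood test was 63.2, with an unadjusted p of 1.89e-15. Such a pair needs very many residual degrees of freedom, so the spread of this gene between mice hardly entered its test. DESeq2 gave 4.31 for Adamdec1 (DESeq2's test, adjusted p = 0.132). In the other direction the smallest p-values belonged to the chemokine Cxcl10 (adjusted p = 0.0502, edgeR's quasi-likelihood test) and to Ly6c1 (0.0822).

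Of these 5, Adamdec1 kept its call with each mouse left out in turn, and the other 4 lost theirs without at least 1 mouse. Adamdec1, a metalloprotease relative of gut stroma, stood at 339, 42.0, 636 and 192 CPM in the SMA-positive cells of KO-labelled mice 2, 3, 6 and 7 and at 0, 211 and 759 CPM in WT-labelled mice 4, 5 and 8. These levels overlap. In the CD90-positive fibroblasts it stood at 4.45 to 8.35 CPM in KO-labelled mice and at 5.51, 30.95 and 1454 CPM in WT-labelled mice 4, 5 and 8. Mouse 8 had only 21 such fibroblasts, 13 of them with Adamdec1. Without mouse 8 the difference was 2.60 (edgeR's quasi-likelihood test, adjusted p = 0.0115), and with all fibroblasts in place of the CD90-positive ones 1.73 (adjusted p = 0.304).

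Grem1 stood at 1110, 2350, 199 and 122 CPM in the SMA-positive cells of KO-labelled mice 2, 3, 6 and 7 and at 247, 194 and 0 CPM in WT-labelled mice 4, 5 and 8. In mouse 3, 1 cell gave 48 of 56 Grem1 UMIs, in mouse 2 26 of 36, and in mouse 6 25 of 26. The 20 high-Des cells, which hold most Grem1, were 1, 2, 2 and 3 in KO-labelled mice 2, 3, 6 and 7 and 1, 11 and 0 in mice 4, 5 and 8. Without mouse 3 the difference was 1.63 (edgeR's quasi-likelihood test, adjusted p = 0.21) and without mouse 8 1.44 (adjusted p = 1).

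Jchain, the joining chain of secreted antibodies and a plasma cell gene, stood at 972 CPM in mouse 7 and at 0 to 61.3 CPM in the other 6 mice. A single cell of mouse 7 held 146 of that mouse's 152 Jchain UMIs. Ccl2 stood at 288 CPM in mouse 7 (45 UMIs in 3 cells) and at 0 to 15.3 CPM elsewhere. Without mouse 7 the differences were 0.43 for Jchain and 0.74 for Ccl2 (edgeR's quasi-likelihood test, adjusted p = 1 for both). Without mouse 5, 1 of the 3 WT-labelled mice, the differences were larger, 5.09 and 9.36, and both missed the threshold (edgeR's quasi-likelihood test, adjusted p = 0.0977 and 0.909). Serpina3n, an acute-phase protease inhibitor, had 27 UMIs in mouse 6, of which 19 lay in 1 cell, and 0 to 12 in the others. It missed the threshold without mouse 6 (2.41; edgeR's quasi-likelihood test, adjusted p = 1) and, with a larger difference, without mouse 5 (3.76, adjusted p = 0.361). Over the alternatives run, the adjusted p of edgeR's quasi-likelihood or DESeq2's test ranged from 6.05e-14 to 0.304 for Adamdec1, from 1.08e-08 to 1 for Jchain and from 5.9e-05 to 1 for Grem1. It ranged from 5.1e-05 to 1 for Serpina3n and from 3.96e-05 to 1 for Ccl2 (edgeR and DESeq2).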

How the data were processed

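Transcripts of single cells were counted in 8 libraries, 1 per mouse, from distal colon mucosa, handled on the same day per the labels' protocols. Build mm10 is listed in the submitters' processing notes, beside Cell Ranger 3.0.2. How the authors filtered, clustered and named cells is not stated. Raw UMI counts of 31053 genes in 53080 cells form the deposited matrix. The authors' cell table gives a size factor, a ratio of a cell's total to the geometric mean of totals, and UMAP coordinates, a score without a unit that was not used. Once its lines were put in the order of mouse and barcode, all 53080 size factors matched the matrix totals (tolerance 1e-06).

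Counts were summed over the SMA-positive cells of each mouse, the replicate. Ratios to fibroblasts used genes of at least 100 UMIs over both sets and those between clusters at least 30. Genotype was tested with edgeR 4.0.16 (quasi-likelihood, TMM, its default expression filter, R 4.3.3), with DESeq2 1.42.0 as the alternative and a threshold of 0.05. The fit had been planned for at least 3 mice per group with 10 or more cells, which only mice 5, 6 and 7 had, so a minimum of 4 cells was chosen after seeing the data. The fit against CD90-positive fibroblasts had a term per mouse. Single values were compared by exact permutation over mice. Scripts were tested on simulated data.

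The members and gene lists were chosen with earlier results of these data known. Named genes are the 4 defining genes, list members, Spry2, the 20 genes with the highest and the 10 with the lowest smallest ratio over mice, and those of smallest p in the genotype tests. Positions are from GENCODE M21. Doublets named by the authors stayed in denominators. Alternatives were another tool, filter, pseudocount, scaling, denominator and comparison set, each mouse left out, mice 1 to 4 against 5 to 8, and cells left out by pericyte, other-lineage or mitochondrial UMIs.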

Additional observations from a re-analysis of the deposited data

Results flagged for a closer look

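WT-labelled mouse 5 stood apart in its group: SMA-positive cells were 1.188% of its cells, and the gap to the next WT-labelled mouse was 0.909 of the range, which began at 0.0145%. Jchain in SMA-positive cells stood at 972.2 CPM in KO-labelled mouse 7, at a gap of 0.937 of the range of the 4 KO-labelled mice. Ccl2 stood at 287.8 CPM in the same mouse, at a gap of 0.947. A mouse apart was looked for in 21 groups of 4 mice and found in these 3. Jchain and Ccl2 were looked at because the interaction test on these same data had called them. Their flags are therefore not separate evidence.

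The genotype difference differed between SMA-positive cells and CD90-positive fibroblasts, by the interaction test of edgeR, for Adamdec1 (3.92 on the log2 scale), Jchain (2.98), Grem1 (2.30), Serpina3n (3.28) and Ccl2 (4.14). The 146 Jchain UMIs of 1 cell, the 48 Grem1 UMIs of another and the 21 CD90-positive fibroblasts of mouse 8 stand beside these values in the text above. Their part in the differences was not tested beyond leaving out each mouse.

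Signal of the defining gene was also present in cells outside the rule: 3 cells named SMA-pos in the fibroblast class and 11 cells of the myofibroblast class without that name held Acta2 UMIs.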

How the results depend on the processing

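Of 240 alternatives, 183 were labelled the same, 26 turned the direction and 31 changed a call, a count or a value. For a difference, the same means the same direction and side of the threshold. For a count of genes it allows a limited change. An example is 102 genes higher than in fibroblasts against 147 with CD90-positive fibroblasts only. No difference between genotypes that turned direction had passed its test in the main setting. The turned value of Des in a fit with 1 WT-labelled mouse is given below. The stromal share of KO-labelled minus WT-labelled mice was 0.191 percentage points within mice 1 to 4 and ran from -0.878 to 1.06 with 1 mouse left out. The share of all cells was -0.155 over non-epithelial cells and ran from -0.143 to 0.310. Both highest values came without mouse 5. With mice of 4 or more cells, KO-labelled minus WT-labelled median depth was 799.6 UMIs and mitochondrial share 1.20 percentage points. Over mice 5, 6 and 7 alone, leaving out either KO-labelled mouse gave -1032 to 105 UMIs and -2.65 to -0.217 percentage points, 1 mouse against 1. The genotype test called 6 of 13397 genes without the filter on low counts (higher: Rgs16, Xist, Jchain, Ccl2; lower: Cxcl10, Podxl). It called 4 without cells of 2 or more pericyte marker UMIs (2 KO-labelled mice and 1 WT-labelled mouse) and 1 (Xist) without cells holding UMIs of other lineages (4 and 1), where the lone mouse is assumed to vary like the others. Xist gave 9 to 162 UMIs in mice 6 to 8 and 0 to 1 in mice 2 to 5. In both fits the lone WT-labelled mouse was mouse 5, and mice 6 and 7 were among the KO-labelled mice. Genotype is thus mixed with the Xist split there. The test called 0 to 0 genes with 1 mouse left out. Myh11 was -0.11 and -0.17 on the log2 scale without those 2 kinds of cells, and ran from -0.10 to 0.46 with 1 mouse left out. Des was -1.86 without the pericyte-marker cells (1 WT-labelled mouse, edgeR's quasi-likelihood test, adjusted p = 0.0154, 0.0154 to 1 over its alternatives), -0.22 with mice 1 to 4 against 5 to 8 as a covariate, -0.48 without cells of 20% or more mitochondrial UMIs, and -0.40 to 0.95 with 1 mouse left out. Acta2 ran from -0.40 to 0.15, and was -0.42 without UMIs of other lineages. Postn was -0.031 without cells of other lineages. The interaction called 1 gene without the filter, 10 against all fibroblasts, 0 with DESeq2, and 4 to 13 with 1 mouse left out, most without mouse 5. With 1 CPM added in place of 10, 168 genes were higher and 290 lower than in fibroblasts by log2 2, and with 1 mouse left out 114 to 123 and 97 to 114. The cause of these changes was not tested. The genotype fits at 10 and 20 cells had been planned for 3 mice per group and were not run, since mice 5, 6 and 7 alone reach either number. No paired analysis of the genotypes was made, because the labels used here pair no KO-labelled mouse with a WT-labelled one. At 172 cells, 477 genes passed the filter for the genotype test.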
